A study of Mus musculus with 9 samples.

Results

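Plasma carrier proteins of the liver are described here through 8 genes of the 19944 in the table: Alb, Ttr, Rbp4, Trf, Ahsg, Fetub, Gc and Serpina6. They were chosen by symbol as carriers of the blood plasma whose concentration usually falls in inflammation, which is a rule that uses no measured value. Earlier results of these data were known when the members and the gene lists were chosen. Livers of male FVB mice aged 60 days on normal chow gave total RNA, from which stranded mRNA libraries were made and sequenced. Wild type (WT), SND1 knockout (KO) and SND1 Tudor domain mutant (KI) mice contributed 3 libraries each, named here by group and title number, as in WT_1. SND1 carries nuclease-like repeats and a Tudor domain, which reads methylated arginine, and the comparison asks what loss of the protein or a change in that domain does to transcription. The labels name neither the mutated residue nor how the alleles were made, and do not say whether litters were shared. The cell type is labelled hepatocyte but the tissue is whole liver, and all 10 hepatocyte markers examined were above 0 in every library.

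Hepatocytes secrete these proteins into blood, where most of them carry a cargo. In the acute phase response, cytokines such as interleukin-6 act on hepatocytes, which then make more of the positive acute phase proteins, such as serum amyloid A, and less of the negative ones. The fall of the negative group has long been used as a clinical sign of inflammation, although mice and humans differ in which proteins belong to it.

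In normalized counts Snd1 averaged 7303 ± 1014 for WT, 334 ± 96.2 for KO and 6303 ± 1423 for KI (SD over 3 libraries), so its level follows the labels. Depth ran from 59678412 to 66384374 reads per library. Transcripts of the exocrine pancreas took 1.254% of the values in WT_3, 0.498% in KI_1 and 5.90% in KI_3, against at most 0.00526% in each of the other libraries. All 3 are WT or KI libraries, and leaving them out keeps 2 WT, 3 KO and 1 KI library. The positive acute phase list of 24 genes took 1.83% to 1.996% of the values in WT, 1.49% to 2.16% in KI, and 7.67%, 19.7% and 20.65% in KO_1, KO_2 and KO_3. Limma called 22 of these 24 genes higher in KO than in WT, with a median log2 fold change of 2.90, and 4 of 24 without the 3 libraries, with a median of 2.81. All values are from bulk tissue, in which fewer hepatocytes and less RNA per hepatocyte cannot be told apart.

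Alb and Gc are members of the albumin family and both lie on mouse chromosome 5, and their levels are set against each other below. For that reason the 120 bases before each RefSeq gene start (GRCm38.p6) are shown, 5′ to 3′ on the strand of the gene. The stretch of Alb is chr5:90460750-90460869 on the forward strand, and that of Gc is chr5:89457899-89458018 on the reverse strand. Capitals mark CCAAT boxes, a common promoter element, read as ATTGG where they lie on the opposite strand.
Alb: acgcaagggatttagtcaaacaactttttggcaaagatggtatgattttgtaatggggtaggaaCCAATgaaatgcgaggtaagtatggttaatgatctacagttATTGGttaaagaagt
Gc: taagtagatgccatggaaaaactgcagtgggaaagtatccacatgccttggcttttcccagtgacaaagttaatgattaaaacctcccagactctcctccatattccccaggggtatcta
Counted from the RefSeq start, the boxes of Alb begin at -56 and -15, and the stretch of Gc holds none, since its CCAAT begins at -225. For Alb the RefSeq start lies before the gene start of 90460897 in GENCODE M21, from which the positions would differ. In the RefSeq table, 5 of the 8 genes have a window of 250 bases before to 50 after the start: Alb, Rbp4, Ahsg, Fetub and Gc. Rbp4 and Fetub have 2 windows each. Among the members and among all genes, a gene was counted where any of its windows held the pattern. On either strand CCAAT occurred in 5 of 5, against 41.1% of the 27025 genes with a window, and the TATA box TATAAA in Rbp4 and Fetub, against 15.7%. The loose C/EBP pattern TTNCNNAA occurred in 5 of 5 genes, against 44.1% of all genes with a window. Neither its strict form TTGCGCAA (0.207% of genes) nor the STAT3-type pattern TTCNNNGAA (9.55%) occurred in any of the 5. A letter match describes the window only and shows no binding.

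In WT livers the 8 transcripts spanned a wide range of abundance. Exon length was the union of all GENCODE M21 exons of a gene, so annotated exons that the liver does not use would lower a value. The order below holds for these lengths only. Per kilobase of exon, Alb stood first at 1466119 ± 236746 normalized counts, followed by Trf at 240179 ± 28198, Gc at 205140 ± 3232 and Ahsg at 181129 ± 14901 (SD, n = 3). Ttr followed at 161787 ± 24412, Rbp4 at 99978 ± 7436, Fetub at 11696 ± 699 and Serpina6 at 8873 ± 808. Neighbours in this order were separate in all WT libraries except Ahsg and Ttr, whose libraries overlapped. In KO the order was the same apart from Ahsg and Gc, which changed places while overlapping, and the Ttr and Rbp4 libraries also overlapped. In KI, Ahsg again stood before Gc, and Ahsg overlapped with both of its neighbours, Trf and Gc.

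KO was compared with WT to ask how the carriers behave when SND1 is lost. They did not move one way: 4 had a positive and 4 a negative log2 fold change. Serpina6 passed the test and was lower, and the other 7 did not pass. In KO, Trf, Ahsg, Fetub and Gc were higher in all 3 libraries than in any WT library, and Ttr, Rbp4 and Serpina6 were lower in all 3, while Alb overlapped. Limma's trend fit (adjusted p under 0.05) thus called 0 of 8 higher and 1 of 8 lower, beside 4.63% of 15238 genes called higher and 4.2% called lower. Groups were fully separate upward in 15% of all genes and downward in 14.2%. Over the same 15238 genes, edgeR called 715 higher and 495 lower, and DESeq2 called 1208 higher and 1087 lower. The median log2 fold change of the 8 was -0.21, against 0.00 for all genes tested. At an unadjusted p under 0.05 limma had 4 of 8, namely Serpina6, Fetub, Ttr and Rbp4. At that threshold edgeR had 6 of 8, DESeq2 7 of 8, and limma without the variance trend 6 of 8. The share of all genes at an unadjusted p under 0.05 was not computed. Such counts, here and below, therefore have no background beside them.

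**Figure D1:**
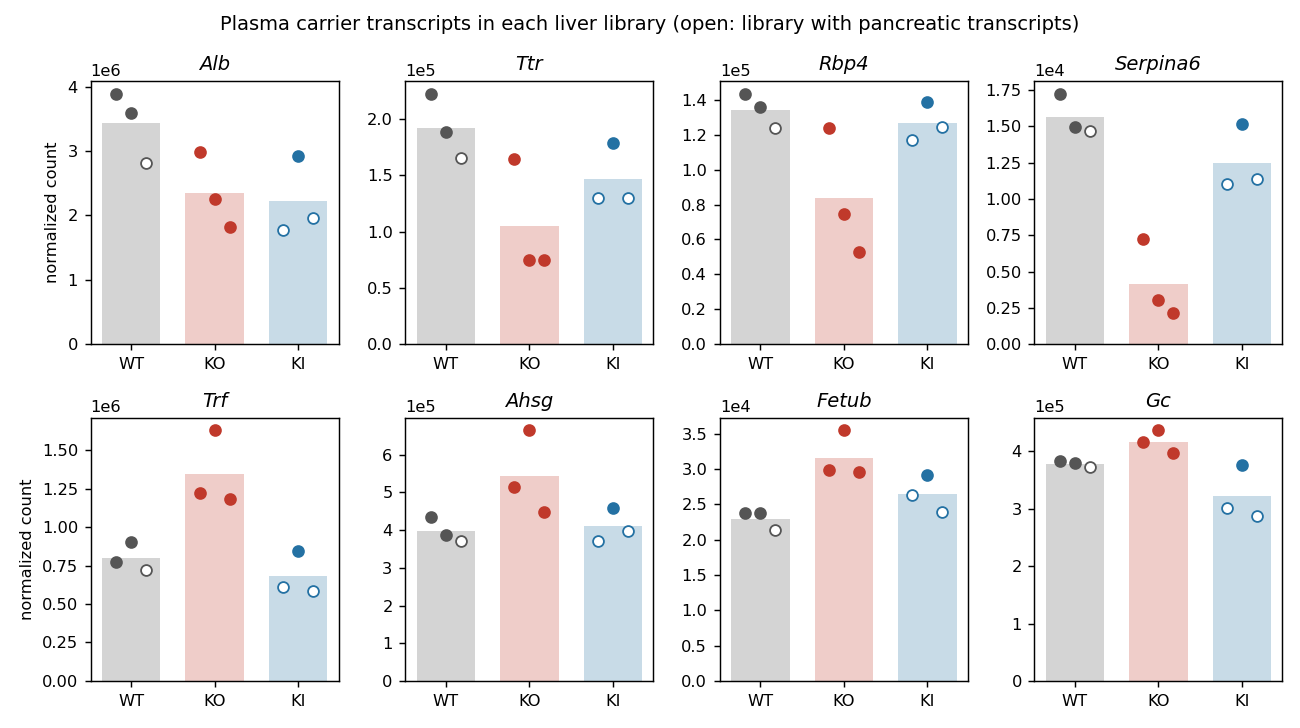
Normalized counts of the 8 carrier transcripts in each library (points) with the group mean (bars), on linear axes that start at 0 and differ between panels. Open points are the 3 libraries with pancreatic transcripts. In the upper row the KO means lie below WT, and in the lower row all 3 KO points lie above the WT points.

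Serpina6 encodes corticosteroid-binding globulin, the plasma carrier of glucocorticoids, and lies on chromosome 12 from 103646630 to 103657212 on the reverse strand (GRCm38, GENCODE M21). Its normalized counts were 17259, 14965 and 14653 in WT, 7279, 3013 and 2168 in KO, and 11009, 15141 and 11361 in KI. Every KO library was below every library of the other 2 groups. The KO mean of 4153 ± 2739 was 3.76-fold below the WT mean of 15626 ± 1423 (SD, n = 3 each). On the log2 scale the difference was -2.10 with an SE of 0.35 (limma adjusted p = 0.00705). KO_1 stood apart from the other KO libraries, at 46.6% of the WT mean against 19.3% in KO_2 and 13.9% in KO_3. KO_1 is also the KO library with the smallest share of positive acute phase transcripts, and the part of that in the spread was not tested. Without WT_3, KI_1 and KI_3 the log2 fold change was -2.15 and no longer passed (limma adjusted p = 0.145), with 30 genes called in all.

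Thyroid hormone and retinol are carried by Ttr and Rbp4, whose proteins circulate as a complex. Ttr, transthyretin, lies on chromosome 18, and Rbp4, the retinol-binding protein, on chromosome 19 from 38116629 to 38125281. Ttr counts were 222571, 188012 and 165055 in WT, and 164338, 74733 and 75138 in KO. The groups were separate only by the narrow gap between WT_3 and KO_1, and KO_2 and KO_3 were close to each other at 38.9% and 39.2% of the WT mean. Its log2 fold change was -0.97 with an SE of 0.34 (limma adjusted p = 0.104). Rbp4 counts were 143545, 135567 and 123699 in WT, and 123614, 74395 and 52701 in KO. KO_1 was again next to WT_3, at 92.1% of the WT mean, whereas KO_3 was at 39.2%. The log2 fold change of Rbp4 was -0.77 with an SE of 0.30 (limma adjusted p = 0.138). With KO_1 left out, both passed the test, Ttr at -1.35 (limma adjusted p = 0.00263) and Rbp4 at -1.10 (limma adjusted p = 0.00456). DESeq2 called Ttr lower with all libraries (-0.88, adjusted p = 0.0237) and did not call Rbp4.

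Albumin, from Alb on chromosome 5 (90460897 to 90476602, forward strand), carries fatty acids, bilirubin and many drugs and sets most of the oncotic pressure of plasma. Alb counts were 3890486, 3593694 and 2816772 in WT, and 2982360, 2258889 and 1815025 in KO. KO_1 lay above WT_3, so the groups overlapped. The KO mean was 1.46-fold below WT, with a log2 fold change of -0.56 and an interval from -2.44 to 1.31 (95%; limma adjusted p = 0.735). The interval carries the spread that limma's abundance trend gives at this level, described further on.

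**Figure D2:**
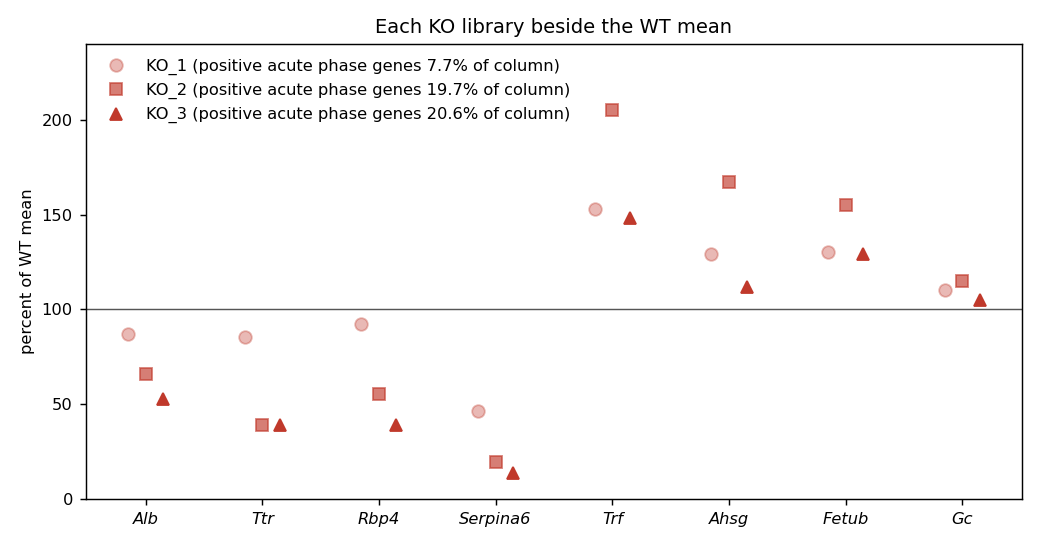
Level of each carrier transcript in KO_1 (circles), KO_2 (squares) and KO_3 (triangles) as a percent of the WT mean (line at 100). KO_1 is nearest to WT for Alb, Ttr, Rbp4 and Serpina6, and KO_2 is the highest for Trf, Ahsg, Fetub and Gc. The key gives the share of values taken by the positive acute phase genes in each library.

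Transferrin, from Trf on chromosome 9 (103204001 to 103230444, reverse strand), carries iron to cells. Trf counts were 771478, 901241 and 719467 in WT, and 1223921, 1631291 and 1183257 in KO. The lowest KO library was well above the highest WT library, and the KO mean was 1.69 times the WT mean. The log2 fold change of 0.75 ± 0.50 (SE) did not pass limma's test (adjusted p = 0.396), but DESeq2 on the recovered reads called Trf higher at 0.75 (adjusted p = 0.00165).

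The fetuins Ahsg and Fetub are plasma proteins of the type 3 cystatin family, and their genes lie near each other on chromosome 16, Ahsg from 22891277 to 22899449 and Fetub from 22918334 to 22939778. Ahsg, or fetuin-A, binds calcium phosphate and limits mineral deposition, and Fetub, or fetuin-B, is an inhibitor of ovastacin, which hardens the egg coat. Ahsg counts were 434565, 387735 and 371523 in WT, and 515313, 664971 and 447461 in KO. Fetub counts were 23738, 23742 and 21363 in WT, and 29799, 35463 and 29519 in KO. Both were higher in every KO library than in any WT library, with KO_2 the highest. The log2 fold change was 0.43 ± 0.36 for Ahsg (SE, limma adjusted p = 0.51) and 0.46 ± 0.14 for Fetub (SE, limma adjusted p = 0.0696). Fetub was called higher by DESeq2 (0.46, adjusted p = 0.00464) and, with limma, when KO_1 was left out (0.50, adjusted p = 0.0351).

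Gc, the vitamin D-binding protein, also binds actin released from damaged cells, and its gene lies on chromosome 5 from 89417522 to 89457898. Its counts were 383553, 379983 and 371912 in WT, and 416870, 436586 and 397180 in KO. The 2 groups were separate but close, with the KO mean 1.1 times the WT mean. The log2 fold change was 0.14, with an interval from -0.57 to 0.85 (95%; limma adjusted p = 0.838). Among the 8 transcripts Gc had the smallest coefficient of variation in WT, 1.58%, and in KO, 4.73%, where Serpina6 had the largest, 66.0%.

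**Figure D3:**
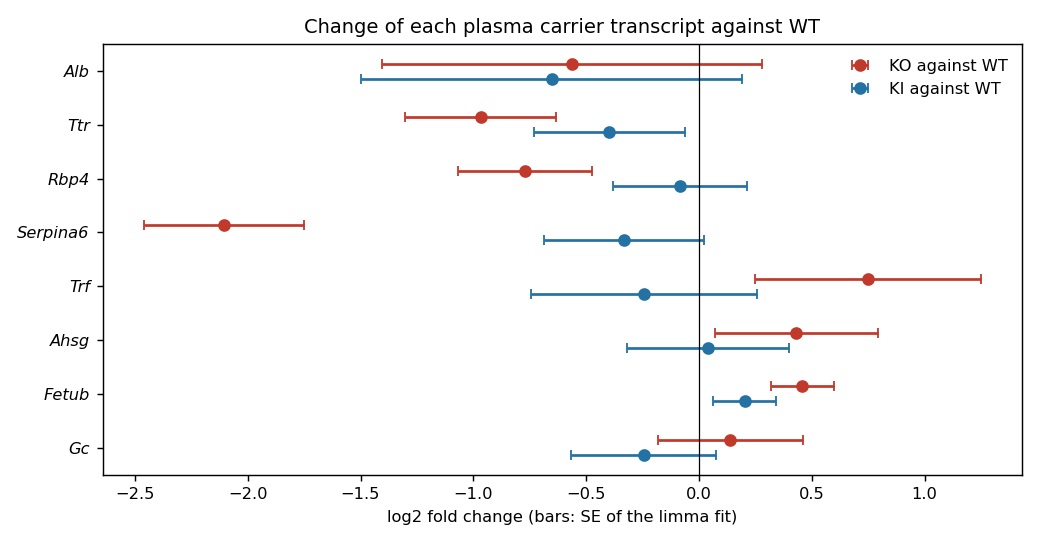
Log2 fold change of each transcript in KO (red) and KI (blue) against WT, with the standard error of the limma fit as bars. Serpina6 in KO, at -2.10, passed the test in these 2 comparisons, and the other points did not. Both colours share the same 3 WT libraries.

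The test weighed the members unequally. Limma's fit draws each gene's variance toward a trend over abundance, and at the level of Alb the trend was an SD of 1.563 log2 units against a residual SD of 0.333 for Alb itself. The trend also exceeded the gene's own SD for Trf (0.913 against 0.241), Ahsg (0.648 against 0.202), Gc (0.595 against 0.126) and Fetub (0.216 against 0.129). For Ttr and Rbp4 the values were close, 0.385 against 0.427 and 0.35 against 0.37. Serpina6 was the opposite case, with a trend of 0.171 against its own 0.547. Without the trend, an alternative chosen after seeing these values, Serpina6 in KO was still called lower (limma adjusted p = 0.0297) and no other member was called against WT.

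**Figure D4:**
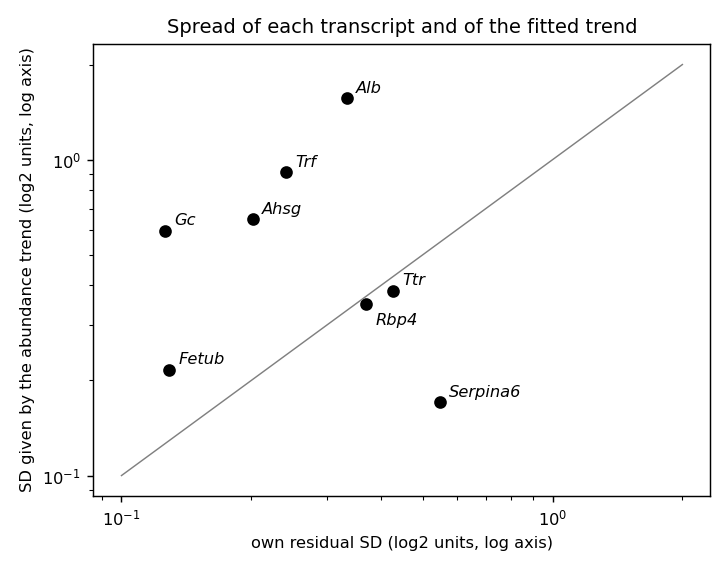
Residual SD of each transcript (horizontal, log2 units, log axis) against the SD that the abundance trend gives at its level (vertical, log axis), with the line of equality. Alb, Trf, Ahsg, Gc and Fetub lie above the line, and Serpina6 lies below it.

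KI was compared with WT to ask what the mutated Tudor domain alone does. None of the 8 carriers passed the test in KI. Limma called 0 higher, beside 0.00656% of all genes, and 0 lower, beside 0.0197%. At an unadjusted p under 0.05 limma had 0 of 8, and edgeR, DESeq2 and limma without the variance trend had 1 of 8 each. After adjustment edgeR and DESeq2 called 0 of 8, beside 1 and 372 of all genes. All 3 KI libraries lay above WT for Fetub alone, with 9.47% of all genes separate upward, and 0 lay fully below, with 10.2% separate downward. The median log2 fold change of the 8 was -0.24, against 0.00 for all genes tested, and leaving out WT_3, KI_1 and KI_3 made it -0.015.

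Within KI the libraries differed by pancreatic transcripts. KI_2, which lacked them, stood at 85.0% of the WT mean for Alb, 93.3% for Ttr, 99.3% for Gc and 96.9% for Serpina6. KI_1 and KI_3, which had them, stood at 51.5% and 57.2% for Alb, 67.8% and 67.7% for Ttr, 79.5% and 76.1% for Gc, and 70.5% and 72.7% for Serpina6. The same pair was lower than KI_2 for all 8 transcripts, and the part of pancreatic tissue in that gap was not tested. KI counts were 1767535, 2919188 and 1964223 for Alb, with a log2 fold change against WT of -0.65 and an interval from -2.53 to 1.22 (95%; limma adjusted p = 0.812). For Trf they were 613668, 842261 and 583609, a log2 fold change of -0.24. Fetub counts were 26365, 29090 and 23933, all above the highest WT value of 23742, and its log2 fold change was 0.20 with an interval from -0.11 to 0.51 (95%; limma adjusted p = 0.618).

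The other 5 transcripts overlapped between KI and WT. Rbp4 counts were 116747, 138781 and 124420, with a log2 fold change of -0.09 and an interval from -0.74 to 0.57 (95%; limma adjusted p = 0.944). Ahsg counts were 371803, 459772 and 397634, with a log2 fold change of 0.04 whose sign turned to -0.06 when columns were scaled to their totals. These intervals do not show that KI and WT were alike. Ttr counts were 130115, 179114 and 129856, and the log2 fold change was -0.40 (interval -1.14 to 0.35; limma adjusted p = 0.699). Gc counts were 301077, 375805 and 287874 (log2 fold change -0.24, interval -0.96 to 0.47; limma adjusted p = 0.815). For Serpina6 the log2 fold change was -0.33 (interval -1.12 to 0.46; limma adjusted p = 0.766). Without the 3 libraries with pancreatic transcripts, where KI_2 is the only KI library and is assumed to vary like the other groups, the log2 fold changes in KI were -0.36 for Alb, -0.19 for Ttr, -0.01 for Rbp4, 0.01 for Trf, 0.16 for Ahsg, 0.29 for Fetub, -0.02 for Gc and -0.09 for Serpina6, with 0 of 8 called.

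Serpina6 also separated the 2 mutants. Directly compared, it was 3.01 times as high in KI as in KO, or 1.77 on the log2 scale with an SE of 0.35 (limma adjusted p = 0.0153). Limma called 1 of 8 higher in KI than in KO, beside 3.6% of all genes, and 0 of 8 lower, beside 4.85%. Serpina6 was the only member fully separate upward, with 12.3% of all genes so, and Trf, Fetub and Gc were fully separate downward, with 14.1%. Trf was 1.98 times as high in KO as in KI (log2 fold change of KI against KO -0.99, limma adjusted p = 0.254), and edgeR called it lower in KI (adjusted p = 0.0265). DESeq2 called Trf and Gc lower in KI than in KO (adjusted p = 1.43e-05 and 0.0277). Over all genes edgeR called 747 lower in KI than in KO, and DESeq2 1277. The Serpina6 call against KO was lost without the 3 libraries with pancreatic transcripts (2.06, limma adjusted p = 0.391). It was also lost without KO_2 (1.64, limma adjusted p = 0.0735) and without KI_1 (1.86, limma adjusted p = 0.0508), and with no variance trend, where Trf was called lower in KI instead (limma adjusted p = 0.0517 for Serpina6 and 0.0351 for Trf).

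Together the 8 transcripts took 9.70%, 9.29% and 7.54% of the values in WT, 8.53%, 8.25% and 7.29% in KO, and 5.21%, 8.18% and 4.98% in KI. Alb by itself took 4.62% to 6.41% in WT, 3.31% to 4.66% in KO and 2.76% to 4.82% in KI. The KO mean was 0.82 percentage points below WT (exact permutation p = 0.3, two-sided), and the KI mean 2.72 points below WT (exact permutation p = 0.2). Without the 3 libraries with pancreatic transcripts these differences were -1.47 and -1.31 points. With 3 libraries against 3 no such test can go below 0.1. Without Alb the other 7 took 3.29%, 3.36% and 2.93% in WT and 3.87%, 4.65% and 3.99% in KO, so that KO was higher by 0.98 points (exact permutation p = 0.1) and every KO library was above every WT library. The KI difference without Alb was -0.52 points (exact permutation p = 0.4). The sign of the KO difference also turned when the positive acute phase and pancreas lists were taken out of the columns, to 0.51 points (exact permutation p = 0.6).

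Ratios within a library do not depend on scaling, and 6 comparisons of them were tested together. The log2 ratio of Alb to Gc was 3.34, 3.24 and 2.92 in WT, 2.84, 2.37 and 2.19 in KO, and 2.55, 2.96 and 2.77 in KI. All KO ratios were below all WT ratios, by 0.70 on average (exact permutation p = 0.1, two-sided, adjusted 0.3), while KI overlapped with WT. The log2 ratio of Rbp4 to Ttr was -0.63, -0.47 and -0.42 in WT, -0.41, -0.01 and -0.51 in KO, and -0.16, -0.37 and -0.06 in KI. KI ratios were all above WT, by 0.31 on average (exact permutation p = 0.1, adjusted 0.3), and KO overlapped with WT. Leaving out WT_3, KI_1 and KI_3 gave a KI difference of 0.18. The ratio of Ahsg to Fetub lay between 3.82 and 4.23 in all 9 libraries, and KO differed from WT by -0.03 (exact permutation p = 0.9, adjusted 0.9).

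**Figure D5:**
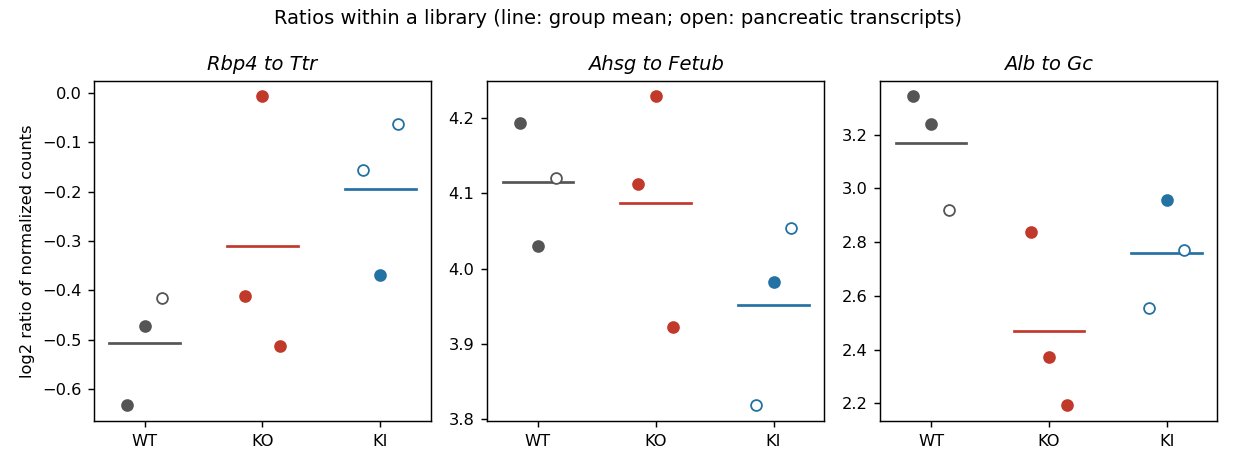
Log2 ratio of normalized counts of 2 transcripts in the same library (points; lines are group means; open points have pancreatic transcripts). The axes do not start at 0. Alb to Gc is lower in all KO libraries than in any WT library, and Ahsg to Fetub stays within 3.82 to 4.23.

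Over the 9 libraries the transcripts fell into patterns that can be described by Pearson's r of log2 values, with no test, since the points share 3 genotype groups. Rbp4 and Serpina6 had r = 0.958, Ttr and Rbp4 0.926, and Ttr and Serpina6 0.924. Trf had r = 0.88 with Gc, 0.867 with Ahsg and 0.798 with Fetub. Between Trf and Serpina6 r was -0.741. Among 11457 genes compared, those most like Serpina6 were Etfa (0.997) and Ces1e (0.996), and those most like Rbp4 were Gamt (0.996) and Agmat (0.993). The closest to Ttr were Magix (0.985) and Hsd11b1 (0.983), to Alb Atl3 (0.984) and Slc19a2 (0.983), and to Trf Sigirr (0.99) and Minpp1 (0.982). The closest to Fetub were Spin1 (0.984) and Ptpn23 (0.974), to Ahsg Rab21 (0.966) and Wbp1 (0.965), and to Gc Pon3 and Soat2 (0.964 each).

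Relatives of the carriers were also uneven in KO. Of 13 other liver plasma proteins that usually fall in inflammation, 1 passed as higher and 3 as lower, and 9 did not pass. Serpina7, thyroxine-binding globulin, rose from 603, 466 and 380 normalized counts in WT to 5046, 10946 and 22610 in KO (log2 fold change 4.50 ± 0.49, limma adjusted p = 0.000941). Pon1, paraoxonase of high-density lipoprotein, fell from 45836, 43401 and 43656 to 19865, 12409 and 10859 (log2 fold change -1.67 ± 0.22, limma adjusted p = 0.00195). Apoa2, an apolipoprotein of the same particle, changed by -1.72 ± 0.31 (limma adjusted p = 0.00953), and the growth factor gene Igf1 by -0.66 ± 0.15 (limma adjusted p = 0.0234). In KO the median of the 13 was -0.19, and without the 3 libraries with pancreatic transcripts 0 of 13 were called.

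In the families of the members few relatives passed with limma. Of the albumin relatives Afp and Afm, 0 of 2 were called in KO by limma or edgeR and 1 by DESeq2, and 1 had an unadjusted limma p under 0.05. Afm, which carries vitamin E and is also among the 13, had a log2 fold change of -0.69 (limma adjusted p = 0.0872). Of 3 relatives of the fetuins, Kng2, a kininogen, was higher in KO with 16954, 25425 and 20740 against 13259, 13233 and 12484 (log2 fold change 0.68 ± 0.16, limma adjusted p = 0.0261). That call was lost without the libraries with pancreatic transcripts, with the pancreas share as a covariate and with no variance trend. Kng1, the other kininogen, was above WT in every KO library but did not pass (log2 fold change 0.74, limma adjusted p = 0.0838). Of the 3, 1 had a negative log2 fold change. DESeq2 called 2 of the 3 higher in KO.

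Receptors and enzymes that handle the cargo were examined as a list of 17, of which 16 were in the table and 13 were tested. Limma called 0 of 13 in KO and 0 of 13 in KI, with 3 of 13 at an unadjusted p under 0.05 in each. The edgeR count was 0 in both, and DESeq2 called 2 in KO and 2 in KI. Over all 15238 genes DESeq2 called 2295 in KO and 372 in KI. Those of iron uptake included Tfr2, with 15503, 17198 and 14070 in WT and 27683, 22826 and 17947 in KO (log2 fold change 0.53, limma adjusted p = 0.0895). Another was Tfrc, the transferrin receptor, with 976, 1209 and 1727 in WT and 2693, 2903 and 2485 in KI. Its log2 fold change was 1.08 in KI (limma adjusted p = 0.11) and 0.33 in KO (limma adjusted p = 0.371). Nr3c1, the glucocorticoid receptor, had a log2 fold change of -0.22 in KO (limma adjusted p = 0.357). Tfr2, Tfrc and Nr3c1 were chosen after their values were seen.

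Among 17 liver transcription factors, 2 passed as higher in KO and 3 as lower. Dbp fell by 2.33 ± 0.48 on the log2 scale (limma adjusted p = 0.0169) and Tef by 1.49 ± 0.28 (limma adjusted p = 0.0106), while Nfil3, a repressor of the bZIP family, rose by 1.43 ± 0.30 (limma adjusted p = 0.0165). Foxa3 rose by 0.67 ± 0.14 (limma adjusted p = 0.018) and Nr2f2 fell by 0.70 (limma adjusted p = 0.0232); Nr2f2 was named as the remaining call. Cebpa, named because the window search used a C/EBP pattern, had a log2 fold change of 0.00 (limma adjusted p = 0.998). For the same reason, Cebpb had -0.055 (limma adjusted p = 0.936) and Cebpd 0.66 (limma adjusted p = 0.257). Without the libraries with pancreatic transcripts 0 of 17 were called, and with no variance trend 1 of 17.

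Markers of other cells were set beside the KO result. Hepatocyte markers took 1.97% to 3.09% of the values in WT and 1.31% to 2.25% in KO, and limma called 0 of 10, with 4 at an unadjusted p under 0.05, edgeR 0 and DESeq2 2 lower. Of the Kupffer cell markers 1 of 11 was called, Marco (log2 fold change 1.75, limma adjusted p = 0.0364). Its counts were 572, 300 and 437 in WT and 1070, 890 and 2992 in KO. Of the neutrophil and monocyte markers 1 of 6 tested was called, Mmp8 (4.38, limma adjusted p = 0.0418), with the list at no more than 0.00328% of any KO library. Mmp8 counts were near the floor, at 1.92, 0 and 6.01 in WT and 10, 112 and 146 in KO. All 6 neutrophil and monocyte markers tested had a positive log2 fold change in KO, with a median of 2.37. A gene near 0 in WT and KI could pass the filter, a mean of at least 10 over the 9 libraries, only through KO. In each WT library 3 to 6 of the 8 markers in the table were below 10. The shared sign is therefore not independent of that filter. At an unadjusted limma p under 0.05 there were 3 of these 6, and edgeR called 1 and DESeq2 3 higher. Beside the DESeq2 counts of these lists stand 1208 of 15238 genes called higher in KO and 1087 called lower. Sox9 alone was called of 5 cholangiocyte markers tested (1.49, limma adjusted p = 0.0249), and limma called 0 of 8 endothelial and 0 of 8 stellate markers, with 1 and 2 at an unadjusted p under 0.05, edgeR 0 of each, and DESeq2 0 and 1. Without the libraries with pancreatic transcripts the calls of Marco, Mmp8 and Sox9 were all lost, as were those of Marco and Mmp8 with no variance trend and of Sox9 with the covariate. Exocrine pancreas markers took at most 0.00448% of a KO library, with 8 to 11 of 16 at 0 there. Their part in the carrier results was not tested.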

How the data were processed

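Liver mRNA was measured in 9 libraries, 3 per genotype. TopHat2, Bowtie2 and featureCounts with build GRCm38 are named by the submitters' processing notes; versions, annotation and strand setting are not given in the sources used here. The deposited values are a signal: gene counts that the authors divided by 1 factor per library, 0.8921 to 1.1051 as recovered here. With a tolerance of 0.0051, at least 99.995% of the values of each library came out as whole reads, and 5 values did not. At 59678412 to 66384374 reads per library, the SD within a group was above counting error for each of these transcripts. Single pairs of libraries could still be close, as for Fetub in WT_1 (23738) and WT_2 (23742).

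Columns were matched to samples by the animal number they share with the description, and no column was left without a sample. The values were tested as log2(value + 1) in 15238 genes with a mean of at least 10, using limma 3.58.1 in R 4.3.3 with 1 mean per group, a variance trend over abundance and 6 residual degrees of freedom. Tests were two-sided, with Benjamini-Hochberg adjustment over all genes tested. A gene with an adjusted p under 0.05 was called. Fold changes of means are ratios of deposited values, and log2 fold changes include the pseudocount of 1. The labels name no shared litters or cultures, so the p-values reflect sample spread only. The alternatives on recovered reads were edgeR 4.0.16 and DESeq2 1.42.0. Python 3.11 with scipy 1.17.1 gave the exact permutation tests. The fits were tested on simulated data.

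The members, the gene lists and the tests were chosen with earlier results of these data known. Named genes are the 8 members, Snd1, at most 4 called genes per list and comparison with the smallest adjusted p, and for each member the 2 genes of highest Pearson r with a mean of at least 50; others are said to be named outside this rule. Gene coordinates are those of GENCODE M21, and those of the promoter stretches are RefSeq (GRCm38.p6). The result for 1 transcription factor, with its promoter pattern, is not reported here. Replicates were checked for duplication, and no pair within a group differed by less than sampling noise.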

Additional observations from a re-analysis of the deposited data

How the results depend on the processing

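The fits were repeated under 24 alternatives. Serpina6 in KO against WT kept its direction in all 24, between -2.61 and -1.73 on the log2 scale, and its call in 23, the exception being the fit without the 3 libraries with pancreatic transcripts, which has 2 WT libraries and 1 KI library. In KO against WT none of the 8 members changed sign in any of the 24. The count of members called there, 1 in the report, was 4 with DESeq2 (Fetub and Trf higher, Serpina6 and Ttr lower), 2 when columns were scaled to their totals without the acute phase and pancreas lists, 0 without the libraries with pancreatic transcripts, and 1 to 4 when 1 library was left out, the 4 being without KO_1. That scaling moved the median of all genes in KO against WT by 0.228 on the log2 scale, beside which Fetub stood at 0.69 and Serpina6 at -1.88. In KI against WT the count was 0 of 8 under every alternative. For KI against KO, 1 in the report, it was 2 with edgeR, 3 with DESeq2, 3 with that scaling, 0 without the libraries with pancreatic transcripts, 0 with the pancreas share as a covariate, 0 in a fit of the 2 groups only, and 0 to 3 with 1 library left out. Signs turned for Trf in KI against WT without the libraries with pancreatic transcripts (0.014), for Ahsg in KI against WT with column totals (-0.058) or column totals without the lists (-0.034), and between -0.046 and 0.107 with 1 library left out (below 0 without WT_3 or KI_2), and for Alb in KI against KO without the libraries with pancreatic transcripts (0.34), with the covariate (0.26), and between -0.306 and 0.096 with 1 library left out (above 0 without KO_1 or KI_1). The read share of the 8 turned to 0.51 points for KO against WT with the 2 lists taken out of the column, to 0.98 without Alb, and to 0.16 for KI against KO without the libraries with pancreatic transcripts. With 1 library left out, the ratio of Ahsg to Fetub in KO against WT ran from -0.0976 to 0.0558. Over all genes the count of calls, 1346 in KO against WT, was 2295 with DESeq2, 800 with no variance trend, 766 with the covariate, 871 in a fit of the 2 groups, 30 without the libraries with pancreatic transcripts and 501 to 2516 with 1 library left out. For KI against KO, 1287 became 2287, 680, 142, 608 and 4 in that order, 2612 with the scaling without the lists, and 400 to 2301 with 1 library left out. For KI against WT, 4 became 1 with edgeR, 372 with DESeq2 and 0 to 35 otherwise. Same-numbered libraries by title correlated between -0.136 and 0.568 in their deviations, with 0.531 for WT_2 and KI_2 and 0.568 for WT_3 and KI_3. With 3 libraries per group these values cannot decide whether the title numbers pair the samples. A fit with the title number as a replicate block called 1551 genes in KO against WT, and Serpina6 stayed called (limma adjusted p = 0.00715). The causes of these changes were not tested.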
